A study of Homo sapiens with 20 samples.

Results

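A set of 10 transcription regulators that govern the identity of B cells and plasma cells was followed on 20 exon arrays. The genes are IRF4, PRDM1, PAX5, BCL6, BACH2, IKZF1, IKZF3, POU2AF1, MYB and BCL11A, 10 of the 14232 genes that the table measures by a probe set with a single symbol. They were taken by symbol, and each of the 10 has 1 such probe set. The arrays carry RNA of a pair of established human lines: Raji, from a Burkitt lymphoma, which is a cancer of B cells, and LP-1, from a multiple myeloma, which is a cancer of plasma cells. Cells of either line were exposed for 4 or 8 h to an inhibitor of BET proteins, at 500 nM, or to the inactive enantiomer of that inhibitor, its mirror-image form, at the same dose and for the same times, or were left without compound (0 h). BET proteins are bromodomain proteins that bind acetylated histones at active genes. The labels do not name the compound. Each of the 10 groups holds 2 arrays, called biological replicates in the labels. Each disease is represented by 1 line, and the lines grew in different media, so line, disease and medium cannot be told apart. No cells without compound were sampled at 4 or 8 h.

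A mature B cell keeps its identity through PAX5, which turns on B cell genes, and, in the germinal centre, through BCL6, a repressor. BACH2 and BCL6 hold down PRDM1. When a B cell turns into a plasma cell, IRF4 rises and PRDM1, whose protein is called Blimp-1, silences PAX5, BCL6 and other B cell genes. IKZF1 and IKZF3 encode Ikaros and Aiolos, zinc finger proteins that myeloma drugs of the lenalidomide kind send to degradation. POU2AF1 encodes a coactivator of octamer-binding proteins, MYB a factor of proliferating progenitors, and BCL11A a repressor needed for lymphoid development that is also known for silencing fetal globin in red cells.

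Promoter sequences are shown for PRDM1, IKZF1 and MYB: IKZF1 and MYB were lower with the inhibitor in both lines, and PRDM1 in Raji, with a difference between the lines that passed the test. Each run is the 250 bases before the start site listed first in the RefSeq promoter table of build GRCh38.p14, read on the + strand, which is the strand of all 3 genes. Capitals mark matches to the motifs searched.
PRDM1, chr6:106086086-106086335: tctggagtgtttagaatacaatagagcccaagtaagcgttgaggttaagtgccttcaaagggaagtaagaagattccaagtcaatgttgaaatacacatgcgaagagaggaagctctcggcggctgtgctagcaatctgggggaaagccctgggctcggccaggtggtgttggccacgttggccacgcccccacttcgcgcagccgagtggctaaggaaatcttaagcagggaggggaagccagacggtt
IKZF1, chr7:50304466-50304715: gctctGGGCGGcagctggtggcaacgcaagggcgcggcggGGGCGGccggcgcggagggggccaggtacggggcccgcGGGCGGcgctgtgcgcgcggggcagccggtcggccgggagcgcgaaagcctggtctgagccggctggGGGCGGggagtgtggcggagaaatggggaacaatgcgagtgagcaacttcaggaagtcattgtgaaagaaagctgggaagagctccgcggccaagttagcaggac
MYB, chr6:135181058-135181307: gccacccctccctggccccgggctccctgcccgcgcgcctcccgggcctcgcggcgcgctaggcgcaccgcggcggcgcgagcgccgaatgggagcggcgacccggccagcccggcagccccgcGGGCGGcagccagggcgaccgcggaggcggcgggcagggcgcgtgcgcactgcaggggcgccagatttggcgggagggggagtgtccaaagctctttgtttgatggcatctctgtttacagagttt

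The searched motifs were the TATA box TATAAA, the CCAAT box CCAAT, the octamer ATTTGCAT, the IRF element GAAANNGAA, the E-box CACGTG, the ETS site GGAAGTG, the GC box GGGCGG and the MYB site AACGG, all on both strands. The GC box was the 1 motif matched in these runs: 4 times before IKZF1, once before MYB, at bases -126 to -121, and not before PRDM1. It is in 42.6% of the 35116 promoter windows of the table. The MYB and IKZF1 windows had 75.6% and 71.2% G and C bases and that of PRDM1 53.6%, against a median of 58.0% over all windows. Over the 16 windows listed for 8 of the genes, the GC box was in 10, the TATA box in 3, the CCAAT box and the MYB site in 2 each, the IRF element and the ETS site in 1 each, and the octamer and the E-box in none. In all windows of the table these motifs stood at 10.7% (TATA box), 32.0% (CCAAT box), 1.63% (octamer), 6.88% (IRF element), 6.34% (E-box), 9.28% (ETS site) and 16.5% (MYB site). A match describes the letters and is no evidence of binding.

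Values below are the deposited log2 expression values, on which a difference of 1 is a doubling. Differences are given with their standard error from limma's moderated linear model (n = 2 arrays per group), and their p-values are adjusted over all 22011 probe sets. A gene counts as called, higher or lower, where its adjusted p is under 0.05. Array medians lay between 5.132 and 5.395, and Pearson's r between replicate arrays was 0.973 to 0.989. Levels of different probe sets cannot be set against each other, and no test against background was possible, so a low value is not shown to be a transcript.

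The untreated lines differed in these genes along the B cell and plasma cell axis. Of the 10, 8 passed the test between untreated Raji and untreated LP-1, 4 higher and 4 lower in Raji, in a comparison in which 24.3% of all probe sets passed. Of all those calls, 28.0% were higher in Raji, 45.8% after quantile normalization and 41.2% after centring each array on its median. The median difference over all probe sets was -0.03 as deposited and 0.11 with that centring; the direction of the 8 calls was the same under both scalings. IRF4 read 5.35 and 5.53 on the untreated Raji arrays, against 10.96 and 11.26 on the untreated LP-1 arrays. The deposited values stood far apart, by -5.67 ± 0.19 (adjusted p = 3.12e-10). PRDM1 read 5.93 on both untreated Raji arrays, against 10.06 and 10.18 in LP-1. No Raji array came near an LP-1 array, and the difference was -4.19 ± 0.15 (adjusted p = 6.1e-10). The low line of IRF4, PRDM1, BCL6, PAX5 and BACH2 is not shown to be above background, so no fold is given for them here.

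The B cell factors ran the other way. BCL6 read 8.84 and 8.86 in untreated Raji, against 3.44 and 3.39 in untreated LP-1. It was higher in Raji by 5.43 ± 0.20 (adjusted p = 6.1e-10). PAX5 read 8.67 and 8.46 in untreated Raji, against 4.41 and 4.65 in untreated LP-1. It was higher in Raji by 4.03 ± 0.17 (adjusted p = 1.76e-09). BACH2, a repressor of the plasma cell programme in B cells, was by contrast lower in Raji: 4.66 and 4.78, against 6.11 and 6.13 in LP-1, a difference of -1.40 ± 0.13 (adjusted p = 2.8e-06).

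MYB read 7.93 and 7.60 in untreated Raji, against 9.32 and 9.58 in untreated LP-1. Both Raji arrays lay below both LP-1 arrays, and MYB was 3.21-fold lower in Raji (-1.68 ± 0.19, adjusted p = 1.85e-05). The Ikaros family differed least among the called genes: IKZF1 was higher in Raji by 0.48 ± 0.16 (adjusted p = 0.0378) and IKZF3 by 0.67 ± 0.22 (adjusted p = 0.0417). Neither was called without any 1 of the 4 untreated arrays (adjusted p = 0.0568 to 0.236 for IKZF1 and 0.0942 to 0.193 for IKZF3). BCL11A differed by 0.33 ± 0.13 (adjusted p = 0.103) and POU2AF1 by 0.15 ± 0.12 (adjusted p = 0.455, 95% interval -0.11 to 0.41). With quantile normalization of the deposited values, BCL11A and POU2AF1 were called higher in Raji (adjusted p = 0.00103 and 0.0254).

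The surrounding programmes bear on whether the lines match their labels. All 6 B cell markers measured were higher in Raji, among them CD79A (4.71 ± 0.16), a chain of the B cell receptor. Of 7 plasma cell markers, 6 were lower in Raji, among them TNFRSF17 (-4.58 ± 0.32), the receptor BCMA. CD38, the other one, was higher in Raji by 0.55 ± 0.16 (adjusted p = 0.024). PAX5, PRDM1 and IRF4 are themselves among these markers. In a wider list of 22 B cell surface and signalling genes, 20 were higher and none lower in Raji, with a median difference of 3.52, against -0.03 over all probe sets. Of 20 plasma cell genes, 15 were lower and 3 higher in Raji, with a median of -0.99. In this comparison 24.3% of all probe sets were called in either direction. The markers other than PAX5, PRDM1 and IRF4 are also in the wider lists, so the lists partly repeat them.

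**Figure D1:**
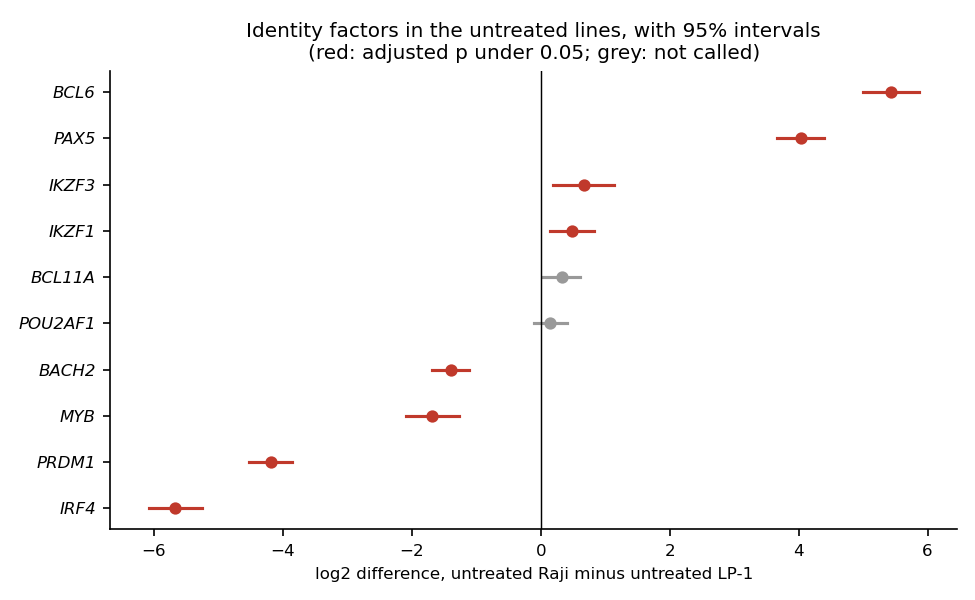
Log2 difference between untreated Raji and untreated LP-1 (horizontal axis) for each of the 10 genes, sorted by size. Points are the fitted differences (2 arrays per group), bars are 95% intervals, red marks an adjusted p under 0.05 and grey the others; IRF4 (-5.67) and PRDM1 (-4.19) lie far to the left, BCL6 (5.43) and PAX5 (4.03) far to the right.

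Setting the inhibitor against its inactive enantiomer, at 500 nM and the same time, asked where the mirror-image forms of the compound give different levels of these genes. In Raji, PRDM1 and MYB were lower with the inhibitor at both times, IKZF1 at 4 h and PAX5 at 8 h. In LP-1, MYB, IKZF3 and BCL11A were lower at both times, IKZF1 and BACH2 at 4 h and POU2AF1 at 8 h. None of the 10 was called higher, and IRF4 and BCL6 were called in none of the 4 comparisons. These are bulk RNA measurements, so fewer cells with a transcript and less of it per cell cannot be told apart.

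Lower calls numbered 3 of 10 in Raji at 4 h, where 0.341% of all probe sets were called lower, and 3 of 10 in Raji at 8 h, against 1.05%. In LP-1 they numbered 5 of 10 at 4 h, against 1.9%, and 4 of 10 at 8 h, against 1.97%. After quantile normalization the shares of all probe sets called lower were 0.8% and 1.5% in Raji and 1.16% and 3.24% in LP-1 at 4 and 8 h, and after centring each array on its median 1.34% and 2.74% in LP-1. Quantile normalization left 2 of the 5 calls in LP-1 at 4 h: BACH2 (adjusted p = 0.0541), IKZF1 (0.0902) and BCL11A (0.0624) lost theirs. The median difference over the 10 genes was -0.43 and -0.40 in Raji at 4 and 8 h, against 0.01 and 0.00 over all probe sets. In LP-1 it was -0.41 and -0.29, against -0.04 and 0.06. In each comparison, 8 of the 10 genes had inhibitor and inactive arrays that did not overlap, in either direction. Over all probe sets that share was 43.6% and 40.3% in Raji and 44.0% and 44.2% in LP-1 at 4 and 8 h.

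**Figure D2:**
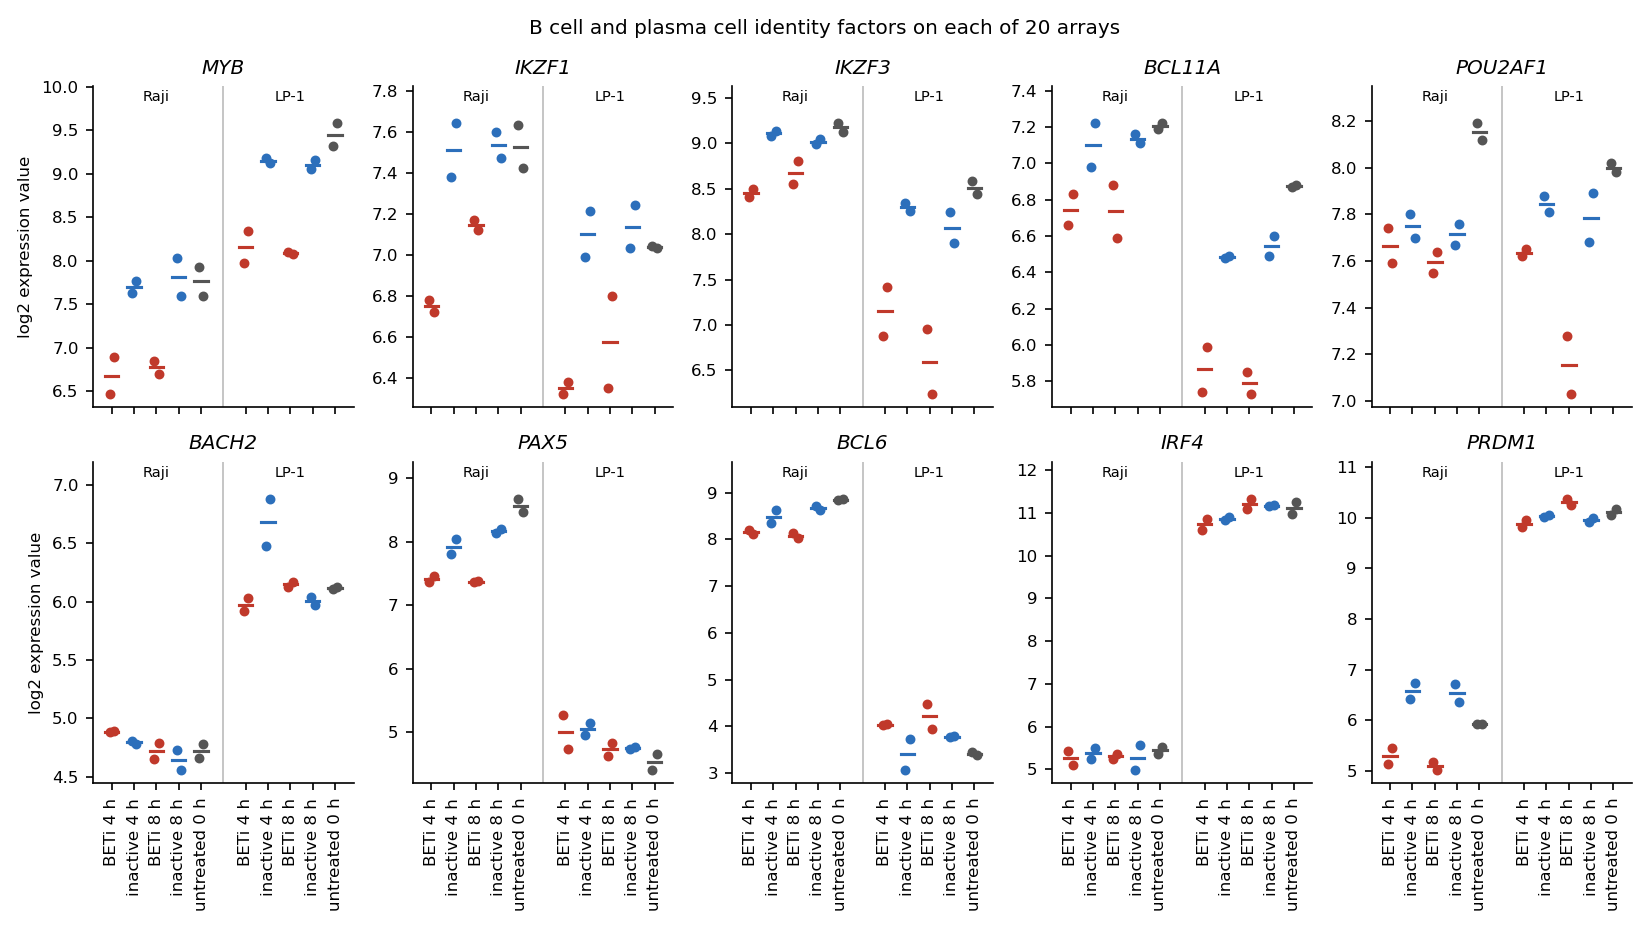
Deposited log2 value (vertical axis, scaled per gene) of each gene on every array, with Raji left and LP-1 right of the grey line; points are the 2 arrays of a group and bars their mean, with BET inhibitor (BETi) in red, inactive enantiomer in blue and untreated in grey. MYB with the inhibitor lies below MYB with the inactive form in both lines at both times, and PRDM1 does so in Raji at both times and in LP-1 at 4 h; all LP-1 arrays of PRDM1 lie between 9.82 and 10.37.

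PRDM1 gave the smallest p-values among the 10 genes in Raji, although it is a plasma cell factor in a B cell line. With the inhibitor it read 5.14 and 5.44 at 4 h, against 6.41 and 6.74 with the inactive form. At 8 h it read 5.18 and 5.02 with the inhibitor, against 6.71 and 6.36. The groups did not overlap at either time, and the untreated arrays lay between them, at 5.93 each. Relative to the inactive form, PRDM1 fell by 1.29 ± 0.15 at 4 h (adjusted p = 0.00205). At 8 h it fell by 1.43 ± 0.15 (adjusted p = 0.000894). Raji is the low line of PRDM1, not shown to be above background, so no fold is given. In LP-1, PRDM1 read 9.82 and 9.95 with the inhibitor at 4 h, against 10.02 and 10.06 with the inactive form, and 10.37 and 10.26 at 8 h, against 9.91 and 9.99. The LP-1 groups did not overlap either, but their differences were -0.15 ± 0.15 (adjusted p = 0.727) and 0.36 ± 0.15 (adjusted p = 0.217), with opposite signs.

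IRF4, on whose product myeloma cells depend, was not called. In LP-1 it read 10.60 and 10.86 with the inhibitor at 4 h, against 10.82 and 10.89 with the inactive form, and 11.10 and 11.32 at 8 h, against 11.15 and 11.18. The groups overlapped at both times. The 95% interval of the difference was -0.54 to 0.29 at 4 h and -0.36 to 0.47 at 8 h, so a change of 1 log2 unit lies outside both. In Raji, where all 10 arrays read between 4.99 and 5.56, the intervals were -0.53 to 0.30 and -0.40 to 0.43.

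PAX5 in Raji read 7.36 and 7.46 with the inhibitor at 4 h, against 7.80 and 8.04 with the inactive form. At 8 h it read 7.36 and 7.38 with the inhibitor, against 8.14 and 8.20. Its untreated arrays, at 8.67 and 8.46, were above all treated ones. The fall at 8 h was called (-0.80 ± 0.17, 1.74-fold, adjusted p = 0.0327). It differed by -0.51 ± 0.17 at 4 h (adjusted p = 0.172). In LP-1, where PAX5 read between 4.41 and 5.27, the differences were -0.04 ± 0.17 and -0.02 ± 0.17.

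BCL6 had opposite signs in the lines and was called in neither. In Raji it read 8.19 and 8.11 with the inhibitor at 4 h, against 8.35 and 8.62 with the inactive form, and 8.13 and 8.03 at 8 h, against 8.72 and 8.63. The groups did not overlap, with differences of -0.34 ± 0.20 (adjusted p = 0.508) and -0.60 ± 0.20 (adjusted p = 0.182). In LP-1 it read 4.02 and 4.04 with the inhibitor at 4 h, against 3.07 and 3.73 with the inactive form, and 4.47 and 3.95 at 8 h, against 3.76 and 3.79. The inhibitor arrays lay above the inactive ones, with differences of 0.63 ± 0.20 (adjusted p = 0.14) and 0.44 ± 0.20 (adjusted p = 0.255). LP-1 is the low line of BCL6, so the sign there comes from values not shown to be above background.

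BACH2 in LP-1 read 5.92 and 6.03 with the inhibitor at 4 h, against 6.48 and 6.88 with the inactive form. Both inactive arrays at 4 h stood above every other LP-1 array, while the inhibitor arrays lay just below the untreated ones at 6.11 and 6.13. The call at 4 h was a difference of -0.71 ± 0.13 from the inactive form (1.63-fold, adjusted p = 0.0138), lost after quantile normalization (0.0541). Relative to untreated cells, BACH2 differed by -0.15 ± 0.13 with the inhibitor (adjusted p = 0.579) and by 0.56 ± 0.13 with the inactive form (adjusted p = 0.46). At 8 h it read 6.13 and 6.17 with the inhibitor, against 6.04 and 5.97 with the inactive form, a difference of 0.14 ± 0.13. In Raji, BACH2 read between 4.56 and 4.89 on all 10 arrays, which is not shown to be above background.

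IKZF1 in Raji read 6.78 and 6.72 with the inhibitor at 4 h, against 7.38 and 7.64 with the inactive form. It fell by 0.76 ± 0.16 (1.7-fold, adjusted p = 0.0299). At 8 h it read 7.17 and 7.12 with the inhibitor, against 7.60 and 7.47, which is closer together, and the difference of -0.39 ± 0.16 was not called (adjusted p = 0.284). In LP-1 it read 6.32 and 6.38 with the inhibitor at 4 h, against 6.99 and 7.21, and fell by 0.75 ± 0.16 (1.68-fold, adjusted p = 0.0248, but 0.0902 after quantile normalization). At 8 h the LP-1 inhibitor arrays parted, at 6.35 and 6.80, against 7.03 and 7.24 with the inactive form. That difference was -0.56 ± 0.16 (adjusted p = 0.0544), and it was called in 5 of the 6 alternatives that leave out no single array (0.0215 to 0.0472 in these), and without the second inhibitor array (0.0209).

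IKZF3 was called in LP-1 and not in Raji, and the difference between the lines was itself not called. In LP-1 it read 6.88 and 7.42 with the inhibitor at 4 h, against 8.34 and 8.26 with the inactive form, and 6.95 and 6.24 at 8 h, against 8.24 and 7.90. Every inhibitor array lay below every other LP-1 array, untreated ones included (8.58 and 8.44). The 4 h fall was -1.15 ± 0.22, or 2.22-fold (adjusted p = 0.0176), and the 8 h fall -1.47 ± 0.22, or 2.78-fold (adjusted p = 0.00245). In Raji it read 8.41 and 8.50 with the inhibitor at 4 h, against 9.08 and 9.14 with the inactive form, and 8.55 and 8.80 at 8 h, against 8.99 and 9.05. The Raji groups did not overlap, but the differences of -0.66 ± 0.22 (adjusted p = 0.174) and -0.35 ± 0.22 (adjusted p = 0.589) were not called.

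POU2AF1 in LP-1 read 7.62 and 7.65 with the inhibitor at 4 h, against 7.88 and 7.81 with the inactive form, and 7.28 and 7.03 at 8 h, against 7.68 and 7.89. The 8 h inhibitor arrays were the lowest of the 20. The 8 h difference of -0.63 ± 0.12 was called (1.55-fold, adjusted p = 0.00875), and the difference of -0.21 ± 0.12 at 4 h was not (adjusted p = 0.477). In Raji the differences were -0.08 ± 0.12 and -0.12 ± 0.12, with intervals of -0.34 to 0.18 and -0.37 to 0.14.

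MYB was the 1 gene of the 10 called in all 4 comparisons. In Raji it read 6.47 and 6.89 with the inhibitor at 4 h, against 7.63 and 7.77 with the inactive form, and 6.85 and 6.70 at 8 h, against 8.03 and 7.60. In LP-1 it read 7.97 and 8.34 with the inhibitor at 4 h, against 9.18 and 9.12, and 8.10 and 8.08 at 8 h, against 9.05 and 9.16. No inhibitor array of a line reached an inactive or untreated array of that line. The 4 differences were -1.02 and -1.04 in Raji (4 h adjusted p = 0.0189, 8 h 0.0169) and -0.99 and -1.02 in LP-1 (4 h adjusted p = 0.0176, 8 h 0.00863), each ± 0.19. As folds these are 2.03, 2.06, 1.99 and 2.02.

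BCL11A in LP-1 read 5.74 and 5.99 with the inhibitor at 4 h, against 6.48 and 6.49 with the inactive form, and 5.85 and 5.73 at 8 h, against 6.49 and 6.60. The 4 inhibitor arrays were the lowest of all 20. Relative to the inactive form it fell by 0.62 ± 0.13 at 4 h, or 1.53-fold (adjusted p = 0.031, but 0.0624 after quantile normalization), and fell by 0.76 ± 0.13 at 8 h, or 1.7-fold (adjusted p = 0.00625). In Raji it read 6.66 and 6.83 with the inhibitor at 4 h, against 6.98 and 7.22, and 6.88 and 6.59 at 8 h, against 7.16 and 7.11. Those groups did not overlap, with differences of -0.36 ± 0.13 (adjusted p = 0.233) and -0.40 ± 0.13 (adjusted p = 0.183).

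**Figure D3:**
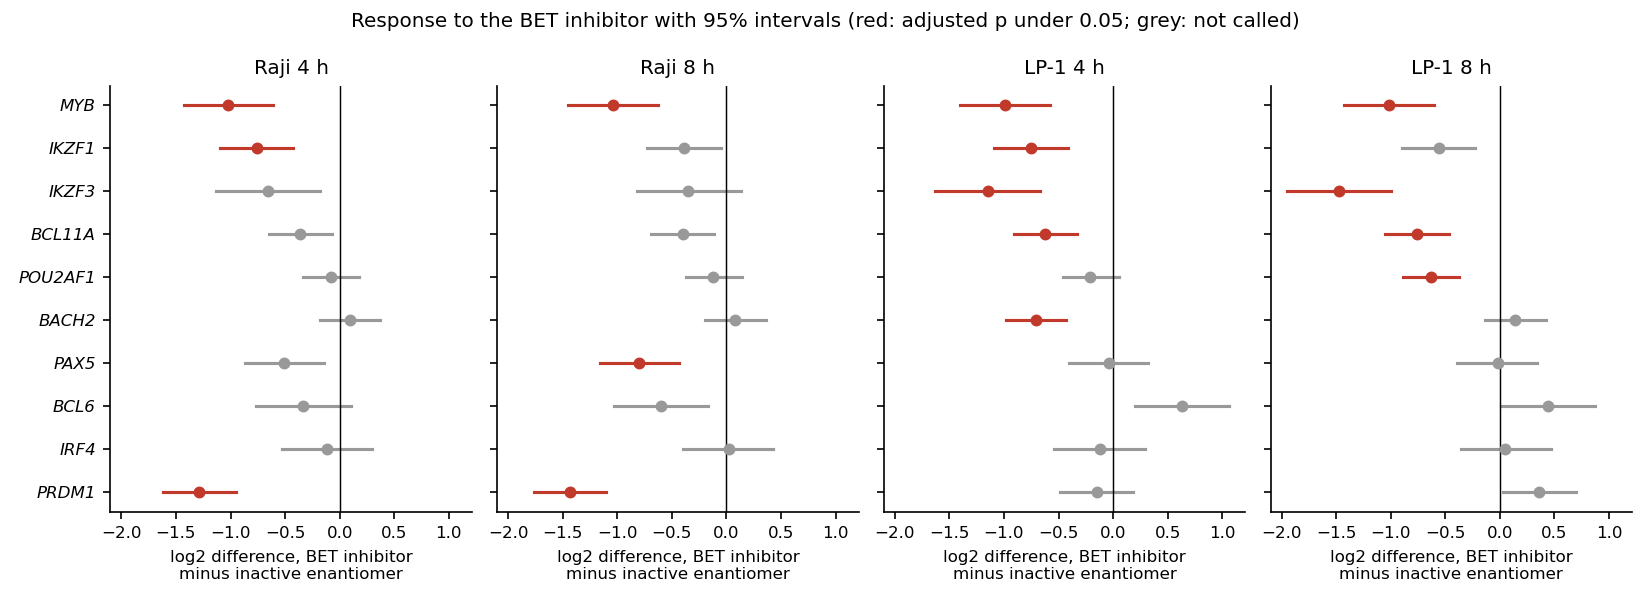
Log2 difference of BET inhibitor minus inactive enantiomer (horizontal axis) for the 10 genes in each line at each time; points are fitted differences (2 arrays per group), bars 95% intervals, red an adjusted p under 0.05 and grey the others. The MYB points lie between -1.04 and -0.99 in every panel, and PRDM1 lies at -1.29 and -1.43 in Raji but at -0.15 and 0.36 in LP-1.

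Whether a response differed between the lines was tested on the difference itself, Raji minus LP-1. At 8 h, 1 of the 10 was called, PRDM1, with -1.79 ± 0.22 (adjusted p = 0.0054), against 0.245% of all probe sets. At 4 h limma called none of the 10, against 0.114% of all probe sets, although 3 had an unadjusted p under 0.05, as did 15.2% of all probe sets. PRDM1 differed there by -1.13 ± 0.22 (adjusted p = 0.0694), and was called without the second LP-1 inhibitor array of 4 h (adjusted p = 0.0491), without the 7337 dimmest probe sets (0.0389) and after quantile normalization (0.0234). BACH2 differed at 4 h by 0.80 ± 0.18 (adjusted p = 0.0925) and BCL6 by -0.97 ± 0.28 (0.155). At 8 h BCL6 differed by -1.04 ± 0.28 (adjusted p = 0.214), IKZF3 by 1.13 ± 0.31 (0.219), PAX5 by -0.77 ± 0.24 (0.287) and POU2AF1 by 0.51 ± 0.17 (0.331). For MYB the difference was -0.03 ± 0.27 at both times, with intervals of -0.61 to 0.55 and -0.61 to 0.56.

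Between 8 and 4 h, limma called no change of the response for any of the 10 in either line, against 0.0% of all probe sets in each. Unadjusted p-values under 0.05 numbered none of the 10 in Raji, against 5.71% of all probe sets, and 3 in LP-1, against 13.2%. The largest difference was that of BACH2 in LP-1, 0.85 ± 0.18 (adjusted p = 0.104), which was called without the second LP-1 inhibitor array of 4 h (adjusted p = 0.0448). POU2AF1 in LP-1 differed by -0.42 ± 0.17 (adjusted p = 0.29) and PRDM1 by 0.52 ± 0.22 (adjusted p = 0.33).

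The inactive form was also set against untreated cells, as a measure of what handling, time in culture and the inactive compound together do. Limma called none of the 10 in any of these 4 comparisons, against 0.0% of all probe sets in Raji at both times, and 0.0136% and 0.504% in LP-1 at 4 and 8 h. Unadjusted p-values under 0.05 were found for 3 of the 10 in Raji at 4 h, 3 in Raji at 8 h, 3 in LP-1 at 4 h and 1 in LP-1 at 8 h. Over all probe sets these shares were 7.91% and 4.52% in Raji and 4.95% and 15.1% in LP-1. In Raji these were PRDM1, with 0.65 ± 0.15 and 0.60 ± 0.15 (adjusted p = 0.405 and 0.721), PAX5, with -0.65 ± 0.17 and -0.39 ± 0.17 (0.422 and 0.996), and POU2AF1, with -0.41 ± 0.12 and -0.44 ± 0.12 (0.462 and 0.721). In LP-1 at 4 h they were BACH2 (0.56 ± 0.13, adjusted p = 0.46), PAX5 (0.51 ± 0.17, 0.76) and BCL11A (-0.39 ± 0.13, 0.808). At 8 h it was BCL11A (-0.33 ± 0.13, adjusted p = 0.272). PAX5 in LP-1 is not shown to be above background. Both inactive arrays lay beyond both untreated arrays in each of the cases named, in either line. That adds no support, since the cases were picked by their p-value. The share of all probe sets without overlap was not counted for these comparisons.

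The comparison of the inhibitor with untreated cells shares its inhibitor arrays with the comparison described first and its untreated arrays with the one above, so it is no separate evidence, and it joins compound and time in culture. In Raji, 3 of the 10 were called at 4 h, against 1.26% of all probe sets, and 4 at 8 h, against 2.26%. In LP-1, 4 were called at 4 h, against 6.73%, and 5 at 8 h, against 7.66%. PAX5 differed by -1.15 ± 0.17 and -1.19 ± 0.17 in Raji (adjusted p = 0.00716 and 0.00363), a 2.22-fold and 2.28-fold lower level. Against the inactive form, the same inhibitor arrays gave -0.51 and -0.80. PRDM1 in Raji differed by -0.64 ± 0.15 and -0.83 ± 0.15 (adjusted p = 0.0677 and 0.0152), less than the -1.29 and -1.43 against the inactive form.

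IKZF1 in Raji was lower than untreated at 4 h (-0.77 ± 0.16, adjusted p = 0.033), POU2AF1 at 8 h (-0.56 ± 0.12, adjusted p = 0.0303), and MYB at both times (2.13-fold and 1.99-fold, adjusted p = 0.0184 and 0.0174). In LP-1, IKZF3 was lower than untreated at 4 and 8 h (-1.36 ± 0.22 and -1.91 ± 0.22), as were MYB (-1.29 ± 0.19 and -1.36 ± 0.19) and BCL11A (-1.01 ± 0.13 and -1.09 ± 0.13). IKZF1 was lower at 4 h (-0.69 ± 0.16, adjusted p = 0.0212) and POU2AF1 at 8 h (-0.85 ± 0.12, adjusted p = 0.00104). BCL6 in LP-1 at 8 h was the 1 member called higher in any comparison of a compound (0.80 ± 0.20, adjusted p = 0.0282). Its level in LP-1 is not shown to be above background. Without any 1 of 3 of its 4 arrays, the first inhibitor array or either untreated array, that call was lost (adjusted p = 0.218, 0.125 and 0.141). In Raji at 8 h, PRDM1, POU2AF1 and MYB each lost this call whichever of their 4 arrays was left out (adjusted p up to 0.128, 0.187 and 0.162), and PAX5 kept it (0.0485). In Raji at 4 h, IKZF1 lost it without any 1 array (up to 0.219), PAX5 without either inhibitor array or the first untreated one (0.0672, 0.0603 and 0.0768), and MYB without the first inhibitor array or either untreated one (0.137, 0.155 and 0.0691). In LP-1 at 4 h, IKZF3 lost it without the first inhibitor array (0.0537), as did IKZF1 (0.126), which also lost it without either untreated array (0.116 and 0.106). MYB and BCL11A in LP-1 kept it at both times without any 1 array, as did IKZF3 and POU2AF1 at 8 h.

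Ordered over all 10 groups, 5 genes kept the lines apart on every array: every LP-1 array exceeded every Raji array for IRF4, PRDM1 and BACH2, and every Raji array exceeded every LP-1 array for PAX5 and BCL6. For PRDM1 the Raji order was inactive 4 h (6.58 ± 0.24, SD, n = 2 here and below), inactive 8 h (6.53 ± 0.25), untreated (5.93), inhibitor 4 h (5.29 ± 0.22) and inhibitor 8 h (5.10 ± 0.11). The inactive groups overlapped each other, and so did the inhibitor groups. For MYB the lowest group of LP-1, inhibitor 8 h (8.09 ± 0.01), still lay above the highest of Raji, inactive 8 h (7.81 ± 0.30), although 1 Raji array of that group (8.03) exceeded 1 LP-1 array with the inhibitor at 4 h (7.97). IKZF1 and POU2AF1 did not separate the lines: IKZF1 with the inhibitor at 8 h in Raji (7.14 ± 0.03) overlapped IKZF1 with the inactive form at 8 h in LP-1 (7.14 ± 0.15), and 6 neighbouring pairs in the order of POU2AF1 overlapped.

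Replicate arrays lay closest for BCL6, BACH2 and POU2AF1, with median gaps of 0.08, 0.09 and 0.09, but the gap of BCL6 reached 0.66 with the inactive form at 4 h in LP-1. The widest gap of any gene was 0.71, for IKZF3 with the inhibitor at 8 h in LP-1. IKZF3 also had the widest range within a line, 2.34 over the 10 LP-1 arrays, and BACH2 in Raji the narrowest, 0.34.

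After each line's own mean was taken out, some of the genes moved together over the 20 arrays. The closest pair was BCL11A and MYB (Pearson's r = 0.93), then BCL11A and IKZF3 (0.91), MYB and IKZF1 (0.87) and MYB and IKZF3 (0.85). The lowest value was that of IKZF3 and BCL6 (-0.36). IRF4 had no r above 0.31 with another member. These values describe arrays that share their treatment groups and scaling, and are given with no test.

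Among all genes measured by a single-symbol probe set, those most like MYB by the same r were ARHGAP25 (0.958), PARP8 (0.957) and CFLAR (0.952), and the least like it was CSRNP2 (-0.913). For PRDM1 they were TIAM2 (0.896), TRIM55 (0.869) and DENND1B (0.868), with VAMP1 lowest (-0.860). IKZF1 was followed most closely by UNC50 (0.936), IRF2 (0.928) and KCNA3 (0.908), with SCG5 lowest (-0.893). IKZF3 was followed by TRMT6 (0.958), DDX47 (0.957) and CYB5D1 (0.955), and its lowest was BRD2 (-0.923), which encodes a BET protein. BCL11A was followed by LRRC8D (0.949), RNF214 (0.948) and ZNF827 (0.947), with SAT1 lowest (-0.878). POU2AF1 was followed by P2RX5 (0.926), XPO6 (0.920) and PRORP (0.912), with SRXN1 lowest (-0.859). PAX5 and BACH2 had looser neighbours: SERPINA9 (0.814), FCRL3 (0.814) and TCL1A (0.809) for PAX5, with INIP lowest (-0.827), and SEMA3C (0.801), OR12D2 (0.722) and RAPGEF5 (0.713) for BACH2, with NOD2 lowest (-0.802).

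Genes downstream of or beside these regulators were taken from lists. Of 22 B cell surface and signalling genes, 2 and 4 were lower with the inhibitor than with the inactive form in Raji at 4 and 8 h. In LP-1 it was 1 gene at each time, CIITA, and none was higher in either line. Over all probe sets, 0.341% and 1.05% were called lower in Raji at 4 and 8 h, and 1.9% and 1.97% in LP-1. The median of the list was -0.20 and -0.44 in Raji, against 0.01 and 0.00 over all probe sets. In LP-1 it was -0.05 and -0.05, against -0.04 and 0.06. BLNK, an adaptor of the B cell receptor, differed in Raji by -0.81 ± 0.17 and -0.93 ± 0.17, and BANK1, a scaffold of the same pathway, by -2.16 ± 0.24 at 8 h. CIITA, the master regulator of HLA class II genes and a target that PRDM1 represses, was lower in all 4 (-0.50 and -0.62 in Raji, -1.01 and -1.35 in LP-1, each ± 0.10). PTPN6, a phosphatase that damps receptor signals, was lower in Raji at 8 h (-0.71 ± 0.12).

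Of 20 plasma cell genes, 1 and 4 were lower with the inhibitor in Raji at 4 and 8 h and 1 and 5 in LP-1, with none higher. The shares of all probe sets called lower were 0.341% and 1.05% in Raji and 1.9% and 1.97% in LP-1. The list medians were 0.13 and -0.23 in Raji, against 0.01 and 0.00 over all probe sets. In LP-1 they were -0.21 and -0.32, against -0.04 and 0.06. TNFRSF17, the receptor BCMA, was lower in all 4 comparisons, with -1.57 and -1.82 in Raji and -1.40 and -2.37 in LP-1 (each ± 0.32). SLAMF7, another surface protein of plasma cells, was lower at 8 h in Raji (-1.26 ± 0.18) and in LP-1 (-1.60 ± 0.18). In untreated Raji, TNFRSF17 and SLAMF7 stood at mean percentiles of 41.3 and 40.8 on the array. Their values in Raji are not shown to be above background. FKBP11, an enzyme of protein folding in secretory cells, was lower at 8 h too (-1.04 ± 0.11 in Raji and -0.55 ± 0.11 in LP-1). HERPUD1, of the degradation pathway of the endoplasmic reticulum, was lower in Raji at 8 h (-0.70 ± 0.13), and the receptor gene TNFRSF13B (-1.19 ± 0.27) and FNDC3B (-0.79 ± 0.17) in LP-1 at 8 h.

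Among 22 other transcription factors of the B lineage, limma called none in Raji at either time (unadjusted p under 0.05 for 4 at 4 h and 3 at 8 h, against 14.1% and 13.0% of all probe sets). In LP-1, FOXP1 was lower at 4 h (-0.84 ± 0.18), and at 8 h LEF1 was lower (-1.24 ± 0.27) and FOXO1 higher (0.74 ± 0.17). Of 13 partners and corepressors of the 10 proteins, limma called none in any of the 4 comparisons (unadjusted p under 0.05 for 0 and 1 in Raji and 4 and 3 in LP-1 at 4 and 8 h, against 14.3% and 18.9% of all probe sets in LP-1). Among 15 relatives by family, IKZF2, which encodes Helios, was lower in Raji (-1.08 ± 0.18 and -0.87 ± 0.18), PRDM10 in Raji at both times (-1.30 ± 0.16 and -1.56 ± 0.16) and in LP-1 at 8 h (-0.78 ± 0.16), and IRF2 in LP-1 (-1.09 ± 0.18 and -0.85 ± 0.18). PRDM4 was lower in LP-1 at 4 h (-0.61 ± 0.13), and BACH1 was higher in LP-1 at 8 h (0.66 ± 0.18, adjusted p = 0.0481). Lower calls made up 0.341% and 1.05% of all probe sets in Raji at 4 and 8 h. In LP-1 they made up 1.9% and 1.97%. Higher calls in LP-1 numbered 83 and 828 of 22011 probe sets at 4 and 8 h.

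BCL6 silences a set of genes in germinal centre B cells, and 13 genes reported as its targets were measured. In Raji, 3 were lower at 4 h, namely CXCL10 (-1.63 ± 0.29), GPR183 (-1.64 ± 0.24) and S1PR1 (-1.22 ± 0.26). At 8 h CXCL10 (-1.50 ± 0.29) and CD80 (-0.93 ± 0.21) were lower and CD69, an activation marker, was higher (1.29 ± 0.22). In LP-1, BCL2 was lower at 4 h (-0.86 ± 0.19), CXCL10 was lower at 8 h (-2.49 ± 0.29), and CDKN1A, the gene of the cell cycle brake p21, was higher at both times (1.48 ± 0.28 and 1.04 ± 0.28). Of all probe sets, 0.341% and 1.05% were called lower in Raji at 4 and 8 h, and 1.9% and 1.97% in LP-1. Called higher were 316 and 182 of 22011 probe sets in Raji, and 83 and 828 in LP-1. The list medians were -0.27 and -0.07 in Raji, against 0.01 and 0.00 over all probe sets. In LP-1 they were -0.28 and -0.19, against -0.04 and 0.06.

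The genes next to each of the 10 on the chromosome gave 20 neighbours, of which 5 were called in at least 1 of the 4 comparisons. Over all probe sets, the share called in either direction was 1.78% and 1.88% in Raji at 4 and 8 h. In LP-1 it was 2.28% and 5.73%. The share of all probe sets called in at least 1 of the 4 was not counted. None of the 5 neighbours was a called fall beside a member called lower in the same comparison. FIGNL1, beside IKZF1, was higher in LP-1 at 8 h (1.28 ± 0.24), BTG4, beside POU2AF1, higher in LP-1 at 4 h (0.88 ± 0.19), and MAP3K7, beside BACH2, higher in LP-1 at 8 h (0.61 ± 0.16). ZPBP2, beside IKZF3, was lower in Raji at 4 h (-1.08 ± 0.22), where IKZF3 itself differed by -0.66 and was not called. LPP, beside BCL6, was lower in Raji at 8 h (-1.01 ± 0.16), where BCL6 differed by -0.60 and was not called. PREP and ATG5, which flank PRDM1, differed by 0.16 ± 0.20 and 0.25 ± 0.21 in Raji at 4 h, and HBS1L and AHI1, which flank MYB, by 0.13 ± 0.18 and 0.35 ± 0.26.

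Markers of other cell types were checked over the same 4 comparisons. Of 12 markers of T and NK cells, 1 was lower with the inhibitor in LP-1 at both times (TRAT1, -0.95 ± 0.22 and -1.44 ± 0.22). Over all probe sets, 1.9% and 1.97% were called lower there. None of the 12 was called in Raji. Limma called none of 7 myeloid, 10 epithelial and fibroblast or 4 erythroid markers. At most 2 of any of these lists had an unadjusted p under 0.05 in a comparison. That share over all probe sets was 14.1% and 13.0% in Raji and 14.3% and 18.9% in LP-1 at 4 and 8 h. The summed log2 level of the T and NK markers in LP-1 was 43.59 to 46.37 with the inhibitor at 4 h, against 44.39 to 45.01 with the inactive form, and 43.49 to 44.52 at 8 h, against 43.63 to 45.33, so those ranges overlapped. Its part in the results was not tested.

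How far the 15 calls of inhibitor against inactive form held under the alternatives differed by gene. A fit without 1 array leaves 1 array in that group, so a lost call need not point to the array left out. The share of all probe sets called also fell in Raji without any 1 array. In LP-1 at 4 h it fell except without the second inhibitor array. PAX5 in Raji at 8 h then differed by -0.83 to -0.76, and MYB in Raji at 4 h by -1.23 to -0.82. PRDM1 in Raji at 8 h, and IKZF3 and BCL11A in LP-1 at 8 h, stayed called in all 10 alternatives that touch them (highest adjusted p 0.0357, 0.0488 and 0.0492). PRDM1 in Raji at 4 h stayed called without any 1 of its 4 arrays (adjusted p = 0.0073 to 0.0236), and lost its call in a fit of the Raji arrays alone (0.0591). MYB kept its direction throughout, but its call was lost without any 1 of the 4 arrays in Raji at 4 h (adjusted p = 0.0682 to 0.131). In Raji at 8 h the call of MYB was lost without either inhibitor array (0.0691 and 0.131) or the first inactive array (0.111).

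In LP-1 at 8 h, MYB lost its call without the first inhibitor array (adjusted p = 0.0512) or the second inactive array (0.0586), and POU2AF1 without the second inhibitor array (0.0557) or the second inactive array (0.0774). In LP-1 at 4 h, all 5 calls were lost without the first inhibitor array. The adjusted p was then 0.147 for MYB, 0.150 for IKZF3, 0.142 for IKZF1, 0.205 for BCL11A and 0.0989 for BACH2. Without the second inactive array these were 0.117, 0.116, 0.241, 0.198 and 0.161, and without the first inactive array 0.135, 0.136, 0.0956 and 0.186 for MYB, IKZF3, IKZF1 and BCL11A. IKZF1 in Raji at 4 h (adjusted p = 0.0623 to 0.229) and PAX5 in Raji at 8 h (0.109 to 0.174) were lost without any 1 of their 4 arrays.

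**Figure D4:**
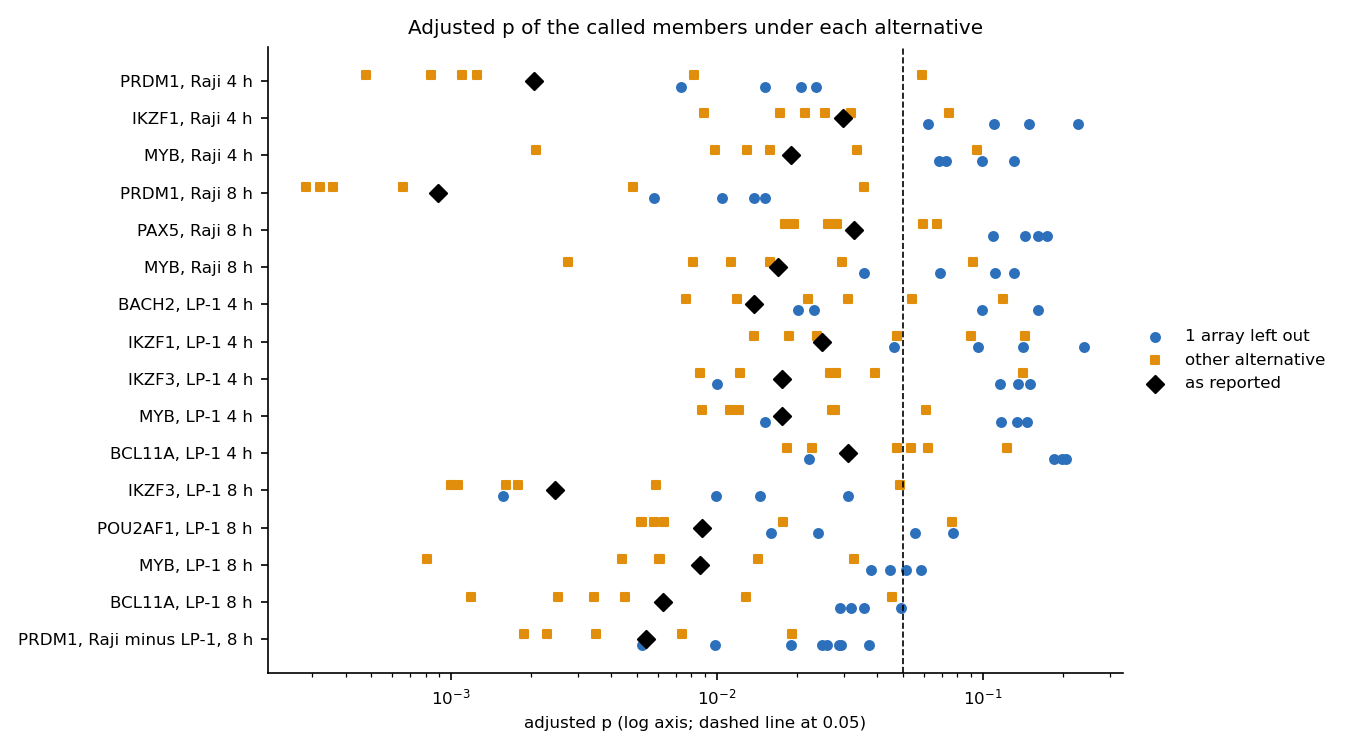
Adjusted p (horizontal log axis, dashed line at 0.05) of each called gene as reported (black diamond), with 1 array left out (blue circles) and under the other alternatives (orange squares); the last line is the difference of the PRDM1 response between lines at 8 h. Points right of the line are lost calls; PRDM1, IKZF3 and BCL11A at 8 h have none.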

How the data were processed

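Total RNA was measured on 20 exon arrays in 10 groups of 2, grouped by the labels. The table that the authors deposited holds log2 expression, 1 row per transcript-level probe set, made with RMA in Affymetrix Expression Console on build hg19, per the submitters' processing notes, which give no versions. RMA levels arrays, so a shift of most genes would not show. They were used as deposited, with no filter. Symbols came from the platform's table (14432 of 22011 probe sets have 1 symbol, and 14404 of these matched RefSeq). The 10 group means were estimated in a linear model with limma 3.58.1 in R 4.3.3 (10 residual degrees of freedom, prior degrees of freedom 2.59) and tested on simulated data. The 17 comparisons got two-sided tests, and p-values were adjusted by Benjamini-Hochberg within each, over every probe set. They measure the spread between the 2 arrays of a group, pooled over both lines, and the number of arrays limits precision. The members, the 6 gene lists, the 4 marker lists and the tests were chosen with earlier results of these data known. Named beside the members are up to 4 called genes per list and line by smallest p, the most and least like genes and the neighbours of called members. TRAT1, LPP and further called genes of small counts were chosen after their values were seen. Alternatives left out the 7337 dimmest probe sets, applied quantile normalization, centred each array, modelled a variance trend, added a replicate block, used 1 line's arrays, or left out each array. Promoter runs come from RefSeq's GRCh38.p14 table, which has no entry used here for IKZF3 and POU2AF1. Replicate numbers did not pair the samples.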

Additional observations from a re-analysis of the deposited data

Results flagged for a closer look

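The response of PRDM1 at 8 h differed between the lines, which drew attention to it because the test of the difference itself passed: -1.79 ± 0.22 (Raji minus LP-1, limma, adjusted p = 0.0054, n = 2 arrays per group). The response was -1.43 ± 0.15 in Raji and 0.36 ± 0.15 in LP-1 (adjusted p = 0.000894 and 0.217). Both Raji inhibitor arrays lay below both inactive arrays, and both LP-1 inhibitor arrays lay above both inactive arrays. The difference stayed called without any 1 of the 8 arrays it uses (adjusted p = 0.00523 to 0.0372) and in the 5 other alternatives (0.00187 to 0.0191). The level of PRDM1 in the lines differed before treatment by -4.19 ± 0.15, and its part in the difference of the response was not tested.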

How the results depend on the processing

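Over 1830 values of the 10 genes under an alternative, 1706 kept their side of the threshold, 98 lost a call and 26 gained one. None of the called values changed sign. Among the 1706 are 119 values that changed sign and were called in neither setting. Of 40 called values, 17 kept their call throughout. With only the arrays of the line, members called for inhibitor over inactive form numbered 0 and 1 in Raji at 4 and 8 h. In LP-1 they numbered 0 and 3. The same fits called 0.223% and 0.409% of all probe sets in Raji and 0.345% and 1.58% in LP-1. With all arrays those shares were 1.78% and 1.88% in Raji and 2.28% and 5.73% in LP-1. For inhibitor over untreated, such fits called 1 and 1 members in Raji and 2 in LP-1 at 4 h. Quantile normalization gave 2 for inhibitor over inactive form in LP-1 at 4 h, against 1.74% of all probe sets. The line difference at 4 h gave 1 without the 7337 dimmest probe sets and 1 after quantile normalization. Inhibitor over untreated in Raji at 4 h gave 5 without those dim probe sets, 6 after quantile normalization and 5 with a variance trend. The causes were not tested. Fits of 1 line have fewer arrays, and fits without 1 array leave 1 array in a group.

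With 1 array left out, inhibitor over inactive form gave 1 in each case in Raji at 4 h (without any of its 4 arrays), 1 to 2 in Raji at 8 h, 0 to 5 in LP-1 (4 h) and 2 to 4 in LP-1 (8 h). Inhibitor over untreated gave 0 to 1 in Raji at 4 h, 1 in each case in Raji at 8 h, 2 to 5 in LP-1 (4 h) and 4 to 6 in LP-1 (8 h). The line difference at 4 h gave 0 to 1 and at 8 h 1, the time difference 0 to 1 in LP-1, and the untreated lines 6, against 8 with all arrays.

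Same-numbered arrays did not deviate together (r of their deviations from the group means, -0.16 to 0.0507 in Raji and -0.0346 to 0.121 in LP-1). The replicate block moved no count of members by more than 1.5 times. Under it PAX5 in Raji at 8 h (adjusted p = 0.0596) and BCL11A in LP-1 at 4 h (0.0537) lost their calls against the inactive form, and IKZF1 in LP-1 at 8 h gained one (0.0472). POU2AF1 in Raji (0.052) and BCL6 in LP-1 (0.05) at 8 h lost theirs against untreated cells, and IKZF3 its call between the untreated lines (0.0534).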
